A study of Mus musculus with 11 samples.

Results

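A set of 42 genes of fatty acid oxidation was followed in the skin and the small intestine of mice treated with imiquimod (IMQ), the agent of a widely used psoriasis model. The genes were chosen by symbol, and all 42 have a row among the 45777 genes of the expression table. They comprise the enzymes, transporters and electron carriers that burn fatty acids in mitochondria and peroxisomes, and genes known as targets of the nuclear receptor PPARα. BALB/c mice received 62.5 mg of cream a day on shaved skin for 5 to 8 days, starting at 8 to 10 weeks of age. The cream was Aldara with 5% IMQ (a Toll-like receptor 7 agonist) in the psoriasis groups and Vaseline in the control groups. IMQ and the rest of the cream therefore cannot be told apart, and an IMQ effect below means the difference between the 2 creams. Whole-tissue RNA gave 3 control and 3 IMQ skin libraries (numbered 1 to 3 and 4 to 6), and 3 control and 2 IMQ small intestine libraries (7 to 9, and 10 and 11). Mice of either sex were used, and the sex and skin site behind each library, the exact number of days and the mouse shared by tissues are not in the labels, so the p-values measure only the spread between these libraries.

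Fatty acids enter oxidation as acyl-CoA esters, made by acyl-CoA synthetases. The carnitine shuttle carries the long chains into mitochondria, where the β-oxidation spiral removes acetyl-CoA units and passes electrons to the respiratory chain through electron transfer flavoprotein. Peroxisomes shorten very long and branched chains, microsomal cytochromes of the Cyp4a family start oxidation from the other end of the chain, and thioesterases release free fatty acids from acyl-CoA again. PPARα, encoded by *Ppara*, is activated by fatty acids and binds DNA as a partner of a retinoid X receptor. In enterocytes it is known to govern the handling of dietary fat, while in skin fatty acids also feed the sebaceous glands and the barrier lipids.

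The marker genes matched the tissue labels. Summed over 5 keratinocyte markers, skin libraries carried 4664 to 13044 FPKM (fragments scaled to transcript length and library size) and intestinal libraries 0.469 to 1.36 FPKM, and 8 enterocyte markers summed to 8804 to 16531 FPKM in intestine. Library totals lay between 44995414 and 58526384 counts. Control skin library 2 stood apart. It held *Fabp2* and *Fabp1*, intestinal fatty acid binding proteins, at 92.9 and 34.6 FPKM, where the other control skin libraries were at 0, and it had almost no hair follicle keratins, as did the IMQ skin libraries. The edgeR totals over the members in the IMQ comparison of skin are given with and without it. Other skin counts include it unless stated.

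Members took 0.309% to 0.372% of all counts in control skin, 0.274% to 0.306% in IMQ skin, 0.570% to 0.713% in control intestine and 0.793% to 0.875% in IMQ intestine. The ranges of control and IMQ libraries did not overlap in either tissue, and IMQ libraries were the lower ones in skin and the higher ones in intestine. In skin the gap was narrow, with 0.3094% in control 3 and 0.3061% in IMQ 6. Such shares weigh the most abundant members most, and *Acsl5* alone gave 60427 to 122260 counts in each intestinal library. Without control 2 the control skin libraries ran from 0.309% to 0.346%. In bulk tissue, fewer cells of a type and less RNA per cell cannot be told apart.

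The first comparison asked how the untreated tissues differ. Of the 40 members tested, 28 were lower and 6 higher in control skin than in control small intestine, with a median log2 difference of -1.11 for skin minus intestine. Tissue differences were common everywhere, since 28.2% of the 18108 genes tested were lower and 28.8% higher in skin, with a median over all genes of 0.01. On the FPKM scale (limma on log2(FPKM + 1)) 25 members were lower and 9 higher in skin with a median of -0.66, but there the median of all genes itself moved to 0.25 and the share of all calls that were higher in skin went from 50.5% to 72.3%. All 5 peroxisomal members were lower in skin, as were 7 of 8 members of the mitochondrial spiral and all 3 electron carriers. The 6 members higher in skin were *Acsl1*, *Acsl4*, *Cpt1b*, *Acot1*, *Acot2* and *Acot3*. Relative to gene length, *Acsl5*, an acyl-CoA synthetase, was the most abundant member in control intestine (564 ± 127 FPKM, SD, n = 3) and in control skin (115 ± 31.7). *Ech1*, an isomerase for unsaturated chains, stood next to it in skin at 112 ± 12.4 FPKM and did not differ from it beyond their spread. In intestine *Hadh*, a dehydrogenase of the spiral, followed at 332 ± 37.6 FPKM, its range of 297 to 372 lying wholly below the 432 to 686 of *Acsl5*. At the low end, *Cyp4a14* was listed at 0 in all control libraries, and *Acot3* reached 0.219 ± 0.046 FPKM in skin and 0.059 ± 0.028 in intestine.

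**Figure D1:**
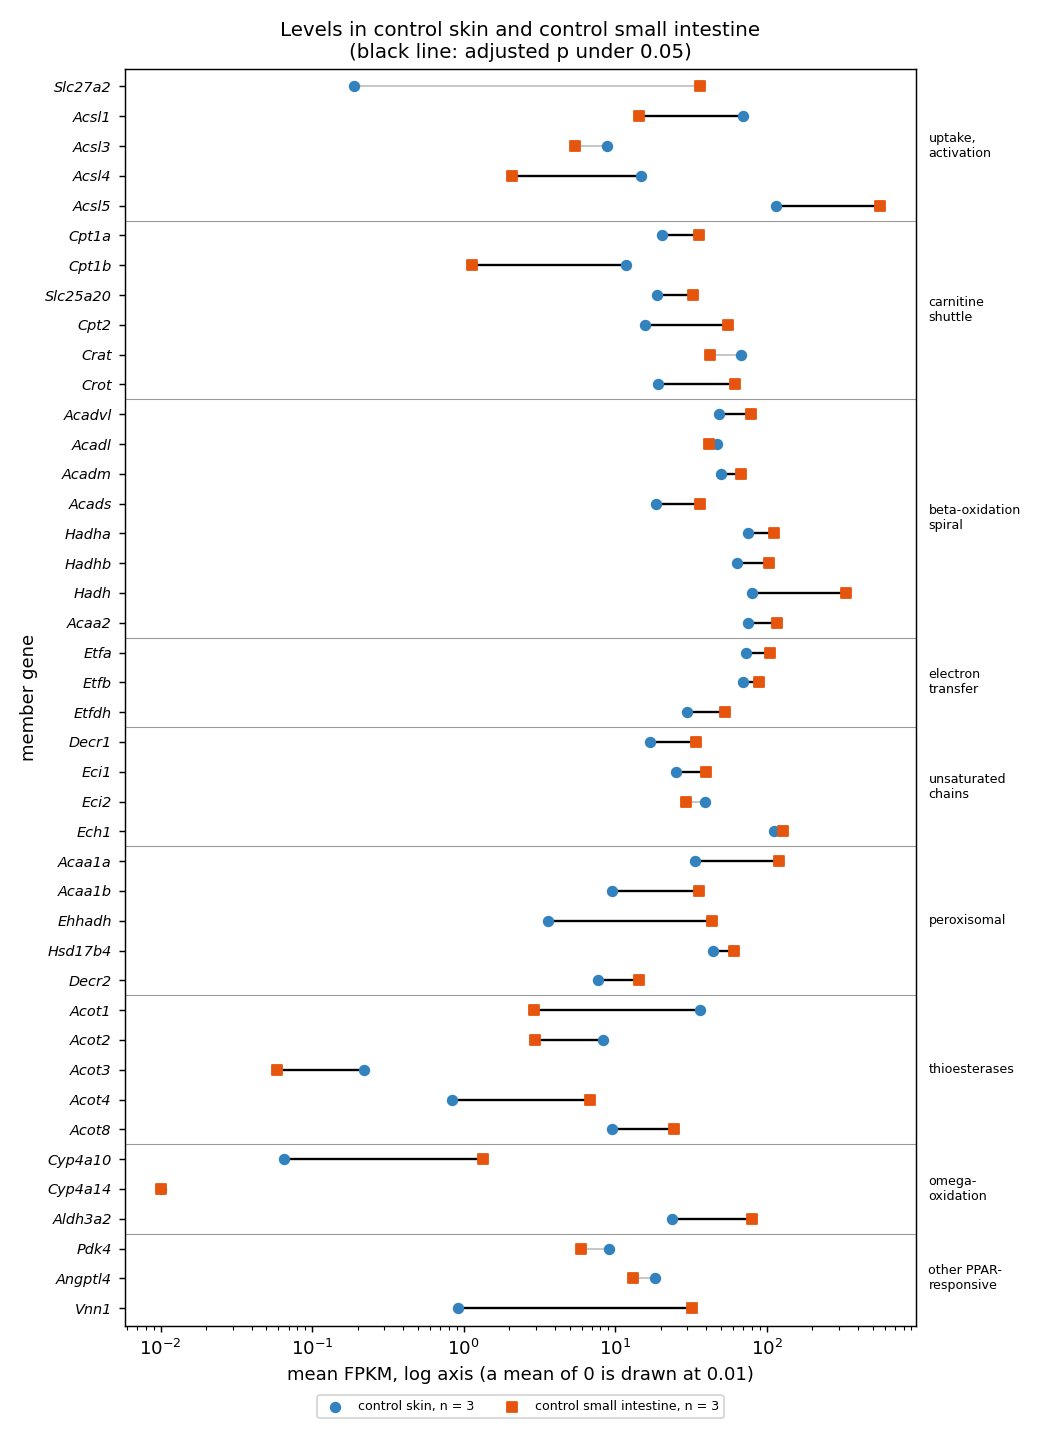
Mean FPKM of each of the 42 members in control skin (circles, n = 3) and control small intestine (squares, n = 3) on a log axis, grouped by role. A black line joins means that differed at an adjusted p under 0.05, and grey lines join the others, among them *Slc27a2* and *Cyp4a14*, which were not tested. Peroxisomal members all lie to the right in intestine, whereas *Acot1*, *Acot2* and *Acot3* lie to the right in skin.

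The isoforms of some steps split between the tissues. *Cpt1a*, the widely expressed carnitine palmitoyltransferase of the outer membrane, was at 35.9 ± 5.42 FPKM in control intestine and 20.5 ± 2.17 in control skin (log2 difference -1.26 ± 0.17 SE, adjusted p = 7.08e-05). *Cpt1b*, the muscle isoform, went the other way, with 11.8 ± 1.40 FPKM in skin and 1.13 ± 0.516 in intestine (2.94 ± 0.43, adjusted p = 0.000145). For *Cpt1b* 91.1% of its 100-base windows are also in the annotated gene *Gm44502*, so its counts are uncertain. Skin held skeletal muscle markers summing to 4866 to 7192 FPKM in controls, against 3.59 to 5.89 in control intestine, and the part of muscle in the *Cpt1b* level was not tested. *Ehhadh*, the peroxisomal bifunctional enzyme, was at 3.59 ± 0.687 FPKM in skin and 43.5 ± 6.28 in intestine (-4.03 ± 0.23, adjusted p = 1.35e-07). *Vnn1*, a pantetheinase of the coenzyme A cycle, had the widest gap of all tested members (0.922 ± 0.612 against 32.1 ± 3.44 FPKM, -5.56 ± 0.54, adjusted p = 6.58e-06).

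The second comparison asked whether IMQ on the skin changed these genes in the small intestine. Of the 41 members tested, 6 were higher in IMQ libraries and 0 were lower, and 35 of 41 log2 fold changes were positive, with a median of 0.40. With 1 library left out the positive values numbered 32 to 38, and the median ran from 0.26 without IMQ 11 and 0.27 without control 8 to 0.56 without IMQ 10. Across all 19965 genes tested 2.77% were called higher and 0.170% lower, and the median was -0.02. The 6 were *Acot1*, *Acot3* and *Acot4* (acyl-CoA thioesterases), *Acadl* (long-chain acyl-CoA dehydrogenase), *Slc27a2* (a fatty acid transporter with very-long-chain acyl-CoA synthetase activity) and *Pdk4* (a kinase that restrains pyruvate dehydrogenase). At an unadjusted p under 0.05, 17 of 41 members were higher, against 8.43% of all genes, and 0 were lower, against 3.85%. DESeq2 also had 0 members lower at an unadjusted p under 0.05. In 19 of 41 members both IMQ libraries lay above all 3 controls in normalized counts, against 15.1% of all genes, and in 2 (*Acadm* and *Acsl3*) they lay below, against 13.9%. The number of calls depended on single libraries. It was 0 without control 9 or IMQ 11, 1 without control 8, 2 without IMQ 10 and 10 without control 7, where the share of all genes called ran from 1.46% to 3.94%. All 6 genes stayed called without control 7, *Acot1* also without control 8 or IMQ 10, and *Pdk4* without IMQ 10, while the other calls were lost with each of the other 4 libraries left out.

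The third comparison asked the same of the treated skin itself. Of the 40 members tested, 1 (*Acot1*) was lower in IMQ libraries and 0 were higher, where 2.69% of the 20512 genes tested were called lower and 4.05% higher. The count was 0 without control 1, IMQ 5 or IMQ 6, and 4 without control 2 (*Acsl3* and *Acot1* lower, *Acadl* and *Pdk4* higher), where 12.1% of all genes were called. It was also 4 without control 3 (*Acsl4*, *Acsl5*, *Acot1* and *Aldh3a2* lower), where 2.18% were called lower. DESeq2 on all 6 libraries called 7, with *Acot1*, *Acot2*, *Crat*, *Decr1*, *Hsd17b4* and *Aldh3a2* lower and *Acadl* higher, where it called 14.8% of all genes. Negative log2 fold changes were seen for 29 of 40 members, with a median of -0.18 against -0.01 over all genes. Without control 2 they were 28 of 40, with a median of -0.10 against 0.01, and with other libraries left out the median reached -0.27 (without IMQ 6). At an unadjusted p under 0.05, 13 of 40 were lower, against 11.8% of all genes, and 2 were higher, against 11.4%. Without control 2 these were 9, against 15.3%, and 2, against 13.3%. In 12 of 40 members all IMQ libraries lay below all controls, against 13.3% of all genes, and *Acadl* alone lay above, against 15.1%. With only controls 1 and 3 to compare, 13 lay below, against 24.0%, and 4 above, against 23.4%.

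**Figure D2:**
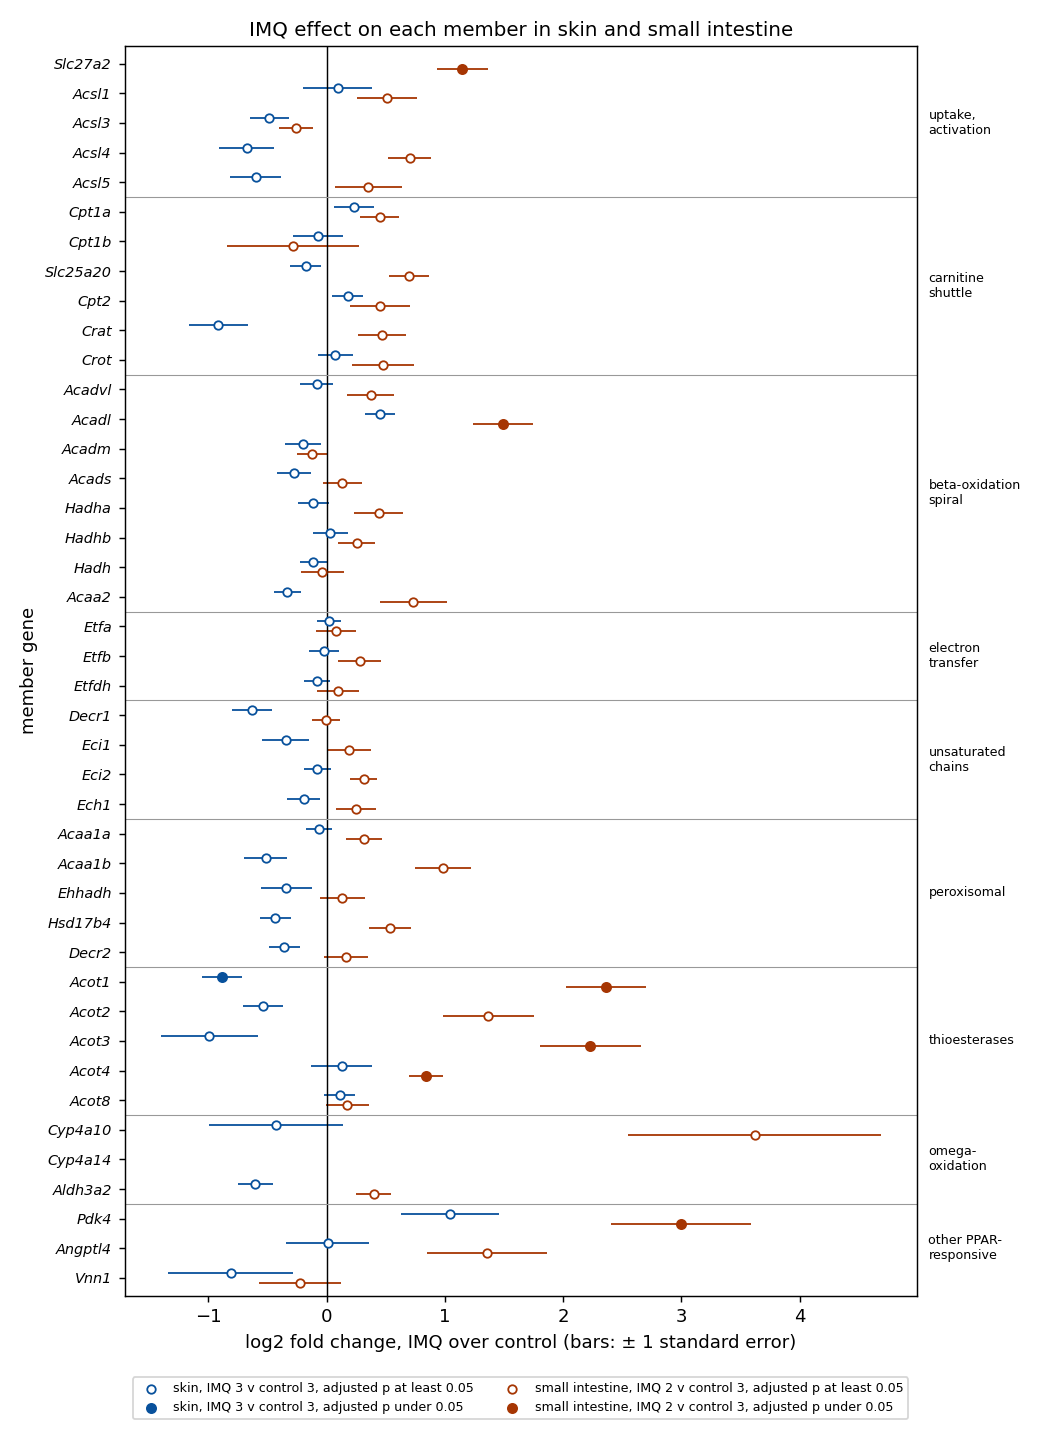
Log2 fold change of IMQ over control for each member in skin (blue, 3 against 3 libraries) and small intestine (orange, 2 against 3), with bars of 1 standard error and filled symbols for adjusted p under 0.05. Most blue points lie left of 0 and most orange points right of 0, and filled points are *Acot1* in skin and 6 members in intestine.

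Of the 40 members tested in both tissues, 23 had a negative value in skin and a positive one in intestine, 11 were positive in both, 6 negative in both and 0 the reverse. The difference of the effects was tested in one fit of all 11 libraries. The IMQ effect was higher in intestine than in skin for *Acot1*, *Acot3*, *Aldh3a2* and *Acaa1b*, and lower for 0 of 40, where 1.70% of all genes were called higher and 0.856% lower. The difference was positive for 39 of 40 members, all but *Cpt1b*, with a median of 0.54 on the log2 scale against 0.03 over all genes. It was positive for 36 of 40 without skin control 2 and for 35 of 40 without intestinal IMQ 11, with medians of 0.47 and 0.36. *Acot1* remained called under every alternative setting and with each library left out, whereas between 1 and 11 members in all were called across these settings.

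Of the 5 thioesterases 3 were called higher in the intestine, more than in any other role, where 2.77% of all genes were called higher. All 3 calls were lost without control 9 or IMQ 11. *Acot1* encodes the cytosolic enzyme and *Acot2* the mitochondrial one, and with *Acot3* and *Acot4*, which encode peroxisomal enzymes, they form a cluster of near neighbours on chromosome 12 of mm10, in the order *Acot2* (83987861 to 83993877), *Acot1* (84009502 to 84017670), *Acot4* (84037254 to 84044723) and *Acot3* (84052144 to 84060400). Their promoter windows are shown because *Acot1*, *Acot3* and *Acot4* rose in the intestine and because *Acot4* holds a match to the element bound by PPAR with retinoid X receptors. Each window, from RefSeq on GRCm38.p6, runs from 250 bases before to 50 after an annotated start, on the plus strand, 5′ to 3′, and capitals mark a match to the element with at most 2 mismatches.
Acot1, chr12:84009252-84009551: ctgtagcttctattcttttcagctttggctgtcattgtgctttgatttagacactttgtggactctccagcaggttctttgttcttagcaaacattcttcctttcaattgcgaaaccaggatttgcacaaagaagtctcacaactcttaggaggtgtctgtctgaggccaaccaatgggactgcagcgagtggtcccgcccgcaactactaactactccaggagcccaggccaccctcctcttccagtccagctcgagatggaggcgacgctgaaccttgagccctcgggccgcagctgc
Acot2, chr12:83987611-83987910: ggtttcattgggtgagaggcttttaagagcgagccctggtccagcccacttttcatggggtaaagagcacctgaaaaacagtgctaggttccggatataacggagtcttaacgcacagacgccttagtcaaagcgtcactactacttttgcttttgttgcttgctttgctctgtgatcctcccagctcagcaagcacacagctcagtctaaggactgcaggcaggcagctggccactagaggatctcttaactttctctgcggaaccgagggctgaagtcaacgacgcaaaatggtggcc
Acot3, chr12:84051894-84052193: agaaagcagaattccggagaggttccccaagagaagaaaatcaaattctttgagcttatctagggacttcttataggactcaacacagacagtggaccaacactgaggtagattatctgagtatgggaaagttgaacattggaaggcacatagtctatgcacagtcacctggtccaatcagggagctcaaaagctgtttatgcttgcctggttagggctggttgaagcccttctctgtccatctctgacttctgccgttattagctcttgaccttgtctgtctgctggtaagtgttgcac
Acot4, chr12:84038129-84038428: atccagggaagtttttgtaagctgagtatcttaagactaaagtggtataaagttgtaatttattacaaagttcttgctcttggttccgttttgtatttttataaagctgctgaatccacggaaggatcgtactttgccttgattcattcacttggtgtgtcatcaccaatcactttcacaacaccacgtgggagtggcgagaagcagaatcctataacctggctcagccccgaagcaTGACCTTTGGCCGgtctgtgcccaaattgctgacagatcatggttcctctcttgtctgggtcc

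The element searched was AGGTCANAGGTCA, a direct repeat of the hexamer AGGTCA with 1 free base between the copies, on both strands. The *Acot4* match lay 13 bases before the start on the opposite strand, at a start that lies inside the gene's annotated span. A window was at hand for 33 of the 42 members, and a match with at most 2 mismatches was found in 3 of them (9.09%), the others being *Etfa* and *Slc25a20*, against 4.40% of 27025 genes with a window. A single hexamer was present in 18.2% of members and 18.1% of all genes. These letters were absent at this tolerance from the *Acot1*, *Acot2* and *Acot3* windows, which says nothing of more distant sites.

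In skin *Acot1* stood at 39.6, 38.1 and 31.9 FPKM in controls and at 22.2, 17.6 and 17.5 under IMQ. The groups did not overlap, and the fitted level under IMQ was 0.542 times that of controls (log2 fold change -0.88 ± 0.17, adjusted p = 0.0292). In intestine it stood at 3.86, 2.75 and 2.1 FPKM in controls and at 10.3 and 18.4 under IMQ, a 5.14-fold rise (2.36 ± 0.34, adjusted p = 0.0116). The effects thus ran in opposite directions and differed by 3.26 ± 0.41 on the log2 scale (adjusted p = 0.00349). Without control 9 or IMQ 11 the intestinal adjusted p was 0.0555 or 0.0718. The skin call was lost without control 1 (adjusted p = 0.110), IMQ 5 (0.134) or IMQ 6 (0.0863), and in one fit of all 11 libraries (0.0583).

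*Acot3* had low counts, with 26, 34 and 40 counts in control skin, 20, 18 and 7 in IMQ skin, 14, 6 and 9 in control intestine and 59 and 35 in IMQ intestine. Its intestinal rise was called (4.70-fold, log2 2.23 ± 0.43, adjusted p = 0.0419), and its skin value, the lowest of all members at -0.99 ± 0.41, was not (adjusted p = 0.212). The effects differed by 3.23 ± 0.60 (adjusted p = 0.0208), a call lost without skin IMQ 5 or any of intestinal libraries 8, 9, 10 and 11, with adjusted p up to 0.0971. *Acot4* was at 6.65, 7.34 and 6.40 FPKM in control intestine and 13.6 and 10.1 under IMQ. That rise was tighter and smaller (1.79-fold, 0.84 ± 0.14, adjusted p = 0.0249), and in skin, where all 6 libraries lay between 0.658 and 1.0 FPKM, the value was 0.13 ± 0.26 (adjusted p = 0.812). *Acot2* had values of the same sign as *Acot1* in both tissues (-0.54 ± 0.17 in skin, adjusted p = 0.117, and 1.37 ± 0.39 in intestine, adjusted p = 0.158) but passed neither test. The fifth thioesterase, *Acot8*, lies outside the cluster and was at 24.5 ± 3.82 FPKM in control and 26.8 ± 2.34 in IMQ intestine. Of the 100-base windows of *Acot1*, 16.5% are shared with *Acot2*, and 9.90% of those of *Acot3* with the annotated gene *Gm49366*, so reads between them may have been assigned either way.

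**Figure D3:**
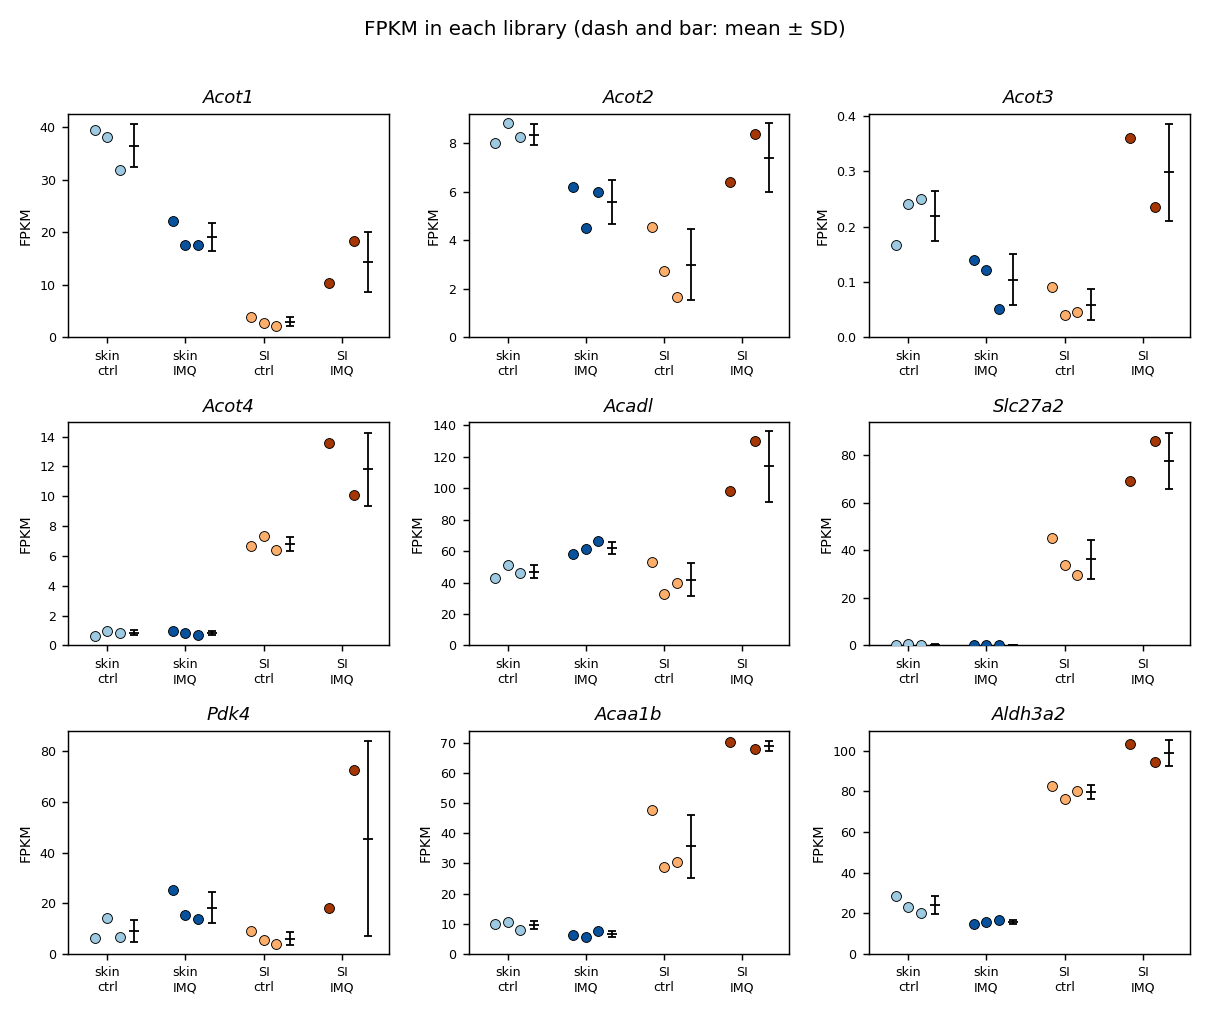
FPKM of 9 members in every library of the 4 groups, with mean ± SD beside the points. In intestine (right side of each panel) IMQ points lie above control points in all 9 panels, and in skin IMQ points lie below for *Acot1*, *Acot2*, *Acot3*, *Acaa1b* and *Aldh3a2* and above for *Acadl*.

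Among the genes of uptake and activation, *Slc27a2* was an intestinal gene. It was at 45.2, 33.8 and 29.4 FPKM in control intestine and at 69.1 and 85.8 under IMQ, a 2.22-fold rise with no overlap (log2 1.15 ± 0.22, adjusted p = 0.0400). In skin it was not tested, since control 3 had a count of 0. The other control skin libraries held 8 and 61 counts, the 61 in control 2, the library with intestinal transcripts. *Acsl5* was at 126, 141 and 79.8 FPKM in control skin and 64.5, 63.4 and 74.9 under IMQ (-0.60 ± 0.22, adjusted p = 0.158). *Acsl4*, a synthetase that prefers arachidonate, had values of opposite sign in skin (-0.68 ± 0.23, adjusted p = 0.144) and intestine (0.70 ± 0.18, adjusted p = 0.122), with a difference of 1.39 ± 0.33 (adjusted p = 0.0547). None of the 4 synthetases *Acsl1*, *Acsl3*, *Acsl4* and *Acsl5* passed the edgeR test of IMQ in the separate fit of either tissue with all its libraries kept.

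None of the 6 carnitine shuttle genes was called by edgeR in the separate fit of either tissue. At an unadjusted p under 0.05, 1 was lower in skin, against 11.8% of all genes, and 2 were higher in intestine, against 8.43%. *Cpt1a*, which catalyses the rate-controlling step, was at 39.5, 38.5 and 29.7 FPKM in control intestine and 45.0 and 49.7 under IMQ (0.45 ± 0.16, adjusted p = 0.302), and at 23.0, 19.0 and 19.5 against 27.9, 20.7 and 20.7 in skin (0.23 ± 0.17, adjusted p = 0.467). The IMQ libraries of intestine lay above the controls, while those of skin overlapped them. *Slc25a20*, the carnitine-acylcarnitine translocase of the inner membrane, was at 34.4, 28.4 and 34.7 FPKM in control intestine and 48.7 and 53.7 under IMQ (0.70 ± 0.17, adjusted p = 0.0980). *Crat*, carnitine acetyltransferase, gave the shuttle's largest skin value, from 72.8, 76.6 and 52.9 FPKM to 29.1, 27.0 and 47.6 (-0.92 ± 0.25, adjusted p = 0.0792). *Cpt1b* had the lowest intestinal value of all members, with 1.72, 0.945 and 0.737 FPKM in controls and 1.44 and 0.394 under IMQ (-0.29 ± 0.56, adjusted p = 0.910). The groups overlapped, and IMQ 11, its lowest library, also held *Actg2*, a smooth muscle actin, at 27.8 FPKM against 116 in IMQ 10. The part of muscle in this value was not tested.

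Within the mitochondrial spiral *Acadl* was the only one of 8 genes to be called, in intestine. It was at 53.1, 33.0 and 39.5 FPKM in control intestine and at 98.0 and 130 under IMQ, a 2.81-fold rise (1.49 ± 0.25, adjusted p = 0.0254). In skin it was the only member with every IMQ library (58.4, 61.0 and 66.4 FPKM) above every control (42.9, 51.3 and 46.3), at 0.45 ± 0.13 (adjusted p = 0.0855). Its neighbours in chain-length preference, *Acadvl* for very long, *Acadm* for medium and *Acads* for short chains, had group means of 78.8, 67.8 and 36.3 FPKM in control intestine and 98.9, 60.3 and 38.6 under IMQ, and none passed the test. The trifunctional protein genes *Hadha* and *Hadhb*, which lie head to head, also did not pass, and 52.8% of the windows of *Hadhb* are shared with the annotated gene *Gm13910*. *Acaa2*, the thiolase that closes the spiral, was at 117 ± 37.7 FPKM in control and 188 ± 40.3 in IMQ intestine, and at 74.8 ± 9.45 and 57.4 ± 4.48 in skin. The electron carriers *Etfa*, *Etfb* and *Etfdh* had medians of -0.02 in skin and 0.10 in intestine on the log2 scale, none was called, and *Etfb* shares 65.2% of its windows with *Gm45233*.

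Of the 4 auxiliary enzymes for unsaturated chains, none was called by edgeR in the separate fit of either tissue. At an unadjusted p under 0.05, 1 was lower in skin, against 11.8% of all genes, and 1 was higher in intestine, against 8.43%. *Decr1*, the mitochondrial dienoyl-CoA reductase, was at 15.1, 18.5 and 17.2 FPKM in control skin and 9.81, 8.91 and 13.2 under IMQ, without overlap (-0.63 ± 0.17, adjusted p = 0.0800), while in intestine its value was -0.01 ± 0.12 (adjusted p = 0.997). The isomerases *Eci1*, *Eci2* and *Ech1* had means of 25.3, 39.3 and 112 FPKM in control skin and 19.3, 36.4 and 95.3 under IMQ, and of 39.8, 29.2 and 127 against 43.9, 34.7 and 146 in intestine, with negative log2 fold changes in skin and positive ones in intestine.

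All 5 peroxisomal members had negative values in skin and positive ones in intestine, and none was called in the separate fit of either tissue. At an unadjusted p under 0.05, 3 were lower in skin, against 11.8% of all genes, and 2 were higher in intestine, against 8.43%. *Acaa1b*, a peroxisomal thiolase, was at 47.7, 28.8 and 30.5 FPKM in control intestine and 70.3 and 67.9 under IMQ (0.99 ± 0.24, adjusted p = 0.0978), and at 9.87, 10.6 and 8.03 against 6.24, 5.66 and 7.49 in skin (-0.51 ± 0.18, adjusted p = 0.150). The groups were separate in both tissues, and the effects differed by 1.51 ± 0.32 (adjusted p = 0.0386). With 1 library left out at a time that call was kept only without skin control 2, skin control 3 or intestinal control 7, and adjusted p reached 0.123. Of its 100-base windows 22.6% are shared with *Acaa1a*, the other thiolase gene. *Hsd17b4*, the D-bifunctional protein, had -0.43 ± 0.13 in skin (adjusted p = 0.104) and 0.54 ± 0.18 in intestine (adjusted p = 0.239). *Ehhadh*, often used as a PPARα target, was at 45.5, 36.5 and 48.6 FPKM in control intestine and 45.0 and 48.0 under IMQ, groups that overlapped (0.13 ± 0.19, adjusted p = 0.871), and its skin value was -0.34 ± 0.21 (adjusted p = 0.401).

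The genes of ω-oxidation and fatty aldehyde oxidation differed widely in level. *Cyp4a10* gave the highest intestinal log2 fold change of all members, 3.62 ± 1.07, and did not pass the test (adjusted p = 0.177). Its controls were at 3.50, 0.253 and 0.245 FPKM and its IMQ libraries at 10.6 and 21, so that control 7 alone spread the control group by over an order of magnitude. Skin libraries held 2 to 11 counts of it, and the skin value was -0.43 ± 0.57 (adjusted p = 0.709). *Cyp4a14* had 2 counts in IMQ skin library 4 and 0 in the other 10 libraries, so it was not tested. *Aldh3a2*, the fatty aldehyde dehydrogenase, was at 28.5, 23.1 and 19.9 FPKM in control skin and 14.5, 15.6 and 16.5 under IMQ (-0.60 ± 0.15, adjusted p = 0.0601), and at 82.5, 76.1 and 80.4 against 103 and 94.4 in intestine (0.40 ± 0.15, adjusted p = 0.310). Neither test passed, yet the effects differed by 1.01 ± 0.21 (adjusted p = 0.0357), and that call too was kept only without skin control 2, skin control 3 or intestinal control 7, with adjusted p up to 0.126.

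*Pdk4*, *Angptl4* and *Vnn1* are PPAR-responsive genes outside the oxidation pathway itself. *Pdk4* was at 8.89, 5.25 and 3.84 FPKM in control intestine and at 18.2 and 72.8 under IMQ, an 8.00-fold rise on average (3.0 ± 0.59, adjusted p = 0.0460). The IMQ libraries differed from each other more than the lower of them did from the controls. In skin *Pdk4* had the highest value of all members, from 6.37, 14.2 and 6.63 to 25.4, 15.4 and 13.9 FPKM, with control 2 inside the IMQ range (1.04 ± 0.41, adjusted p = 0.191). Without control 2 the adjusted p for *Pdk4* in skin was 0.0297. *Angptl4*, a secreted inhibitor of lipoprotein lipase, was at 21.7, 10.0 and 7.62 FPKM in control intestine and 19.3 and 45.0 under IMQ (1.36 ± 0.51, adjusted p = 0.314), and in skin at 12.3, 18.7 and 24.3 against 10.9, 16.4 and 26.9 (0.01 ± 0.35, adjusted p = 0.992), with overlap in both. *Vnn1* overlapped as well, at 28.9, 31.5 and 35.8 FPKM against 15.8 and 36.7 in intestine (-0.22 ± 0.35, adjusted p = 0.886) and at 0.775, 1.59 and 0.397 against 0.431, 0.378 and 0.698 in skin (-0.81 ± 0.53, adjusted p = 0.415). The 1.59 FPKM was in control 2, the skin library with intestinal transcripts, and their part in this value was not tested.

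**Figure D4:**
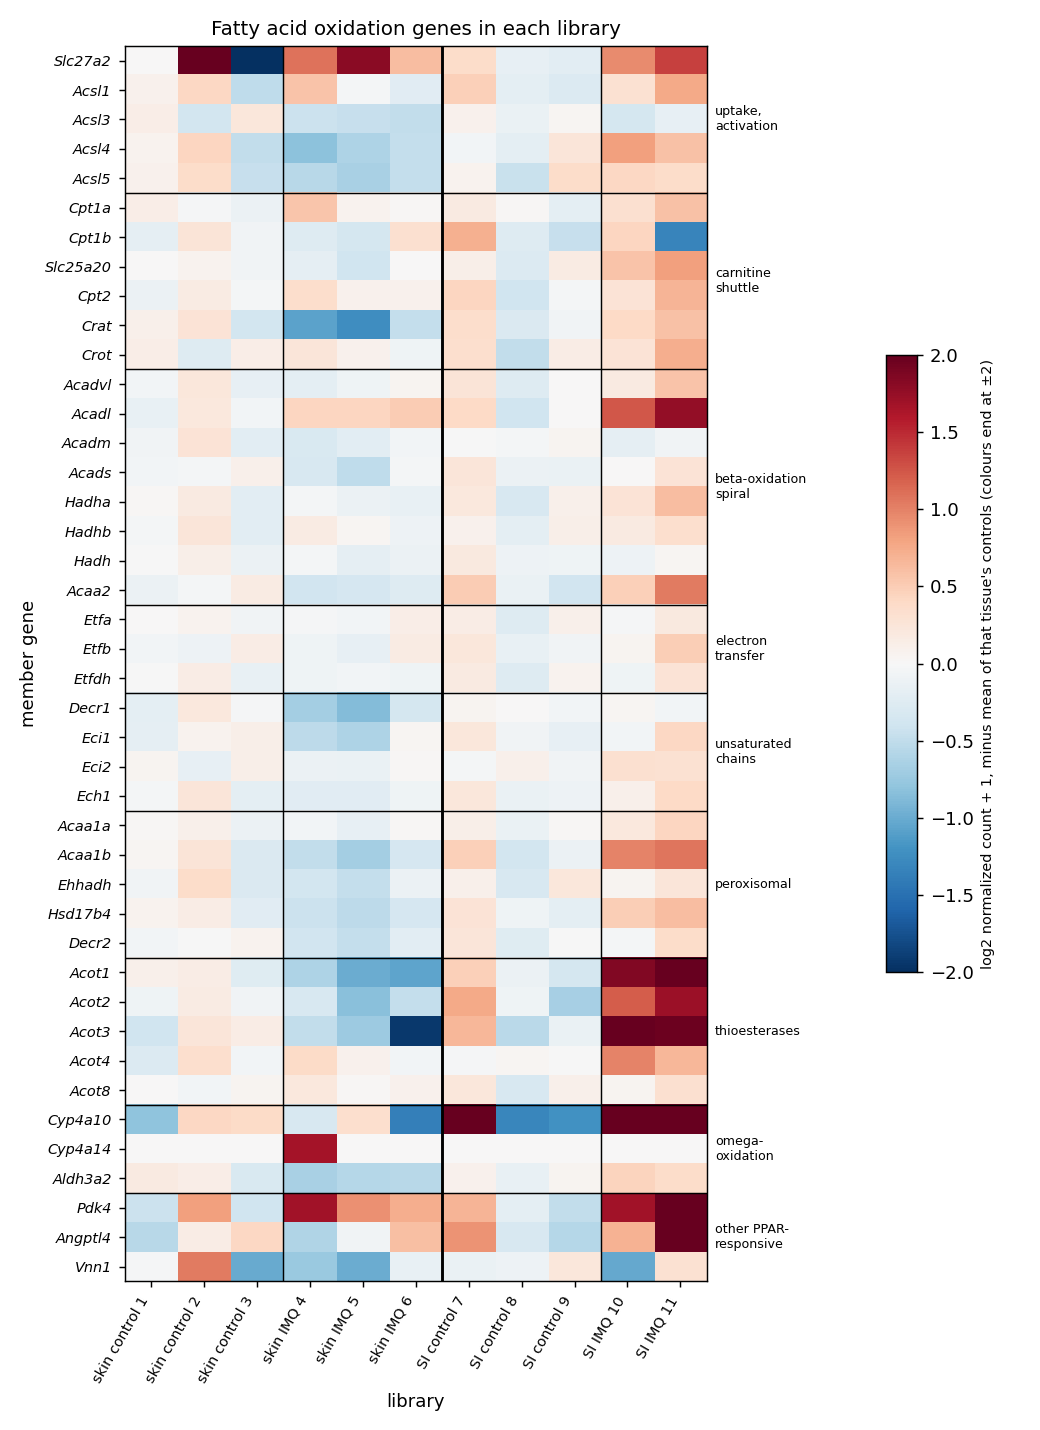
Log2 normalized count + 1 of the 42 members in the 11 libraries, minus the mean of the 3 controls of the same tissue (red higher, blue lower, colours ending at ±2), with members grouped by role. The median over members was -0.02, 0.16 and -0.09 in control skin libraries 1, 2 and 3. It was -0.24, -0.20 and -0.09 in IMQ skin libraries 4, 5 and 6, so the skin groups overlapped at control 3 and IMQ 6. In intestine it was 0.22, -0.19 and -0.04 in control libraries 7, 8 and 9, and 0.29 and 0.53 in IMQ libraries 10 and 11.

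Each of the 3 PPAR genes was called in 1 tissue. *Ppara* was at 2.65, 2.75 and 1.70 FPKM in control skin and at 0.924, 1.09 and 1.27 under IMQ, a fall without overlap (-1.17 ± 0.27, adjusted p = 0.0495), whereas intestine held 7.90, 13.3 and 9.25 against 12.9 and 9.65 (0.15 ± 0.22, adjusted p = 0.880). The difference of its effects did not pass the test (1.32 ± 0.37, adjusted p = 0.0986). *Ppard*, the receptor PPARδ, rose in skin from 19.6, 14.0 and 15.2 to 32.6, 28.6 and 26.5 FPKM (0.91 ± 0.16, adjusted p = 0.0242) and had a value of -0.30 ± 0.22 in intestine (adjusted p = 0.695), and the difference of its effects, -1.20 ± 0.29, did not pass either (adjusted p = 0.0596). *Pparg*, the receptor of adipocyte and sebocyte differentiation, rose in intestine from 3.82, 2.85 and 3.28 to 9.93 and 6.77 FPKM (1.37 ± 0.22, adjusted p = 0.0195), and in skin the value was -0.72 ± 0.18 (adjusted p = 0.0605). Its effects differed by 2.1 ± 0.30 between the tissues (adjusted p = 0.00598). Of the 13 receptors, partners and coregulators, 3 rose and 1 fell in skin and 1 rose in intestine. Over all genes tested, 4.05% were called higher and 2.69% lower in skin, and 2.77% higher in intestine. The other genes that rose in skin were *Ppargc1b* and *Esrra*, a coactivator and a nuclear receptor of mitochondrial gene expression (0.52 ± 0.12, adjusted p = 0.0459, and 0.58 ± 0.10, adjusted p = 0.0231). *Ppargc1a*, the related coactivator, had values of -0.24 ± 0.39 in skin and -0.42 ± 0.24 in intestine (adjusted p = 0.762 and 0.588). Without control 2 *Ppard*, *Ppargc1b* and *Esrra* stayed called in skin, and *Ppara* did not (-1.03, adjusted p = 0.0712). With 1 skin library left out at a time *Ppara* was called only without control 3, and its adjusted p reached 0.182. The *Pparg* call in intestine was lost without control 8, control 9 or IMQ 10 (adjusted p up to 0.159), and the difference of its effects remained called in every case (adjusted p up to 0.0390).

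Genes of neighbouring pathways were counted in the same way. The shares of all genes called were 4.05% higher and 2.69% lower in skin, and 2.77% higher and 0.170% lower in intestine. Of 16 further PPAR targets and fatty acid handling genes, 12 were tested in intestine and 2 rose, *Plin2*, a lipid droplet coat protein (1.07 ± 0.18, adjusted p = 0.0232), and *Pex11a*, a peroxisome division factor (0.73 ± 0.13, adjusted p = 0.0268). None of the 11 tested in skin was called. Of 12 further peroxisomal oxidation genes *Acox2*, the branched-chain acyl-CoA oxidase, rose in intestine (1.75 ± 0.30, adjusted p = 0.0255), and *Acox3* fell in skin (-1.08 ± 0.25, adjusted p = 0.0493). None of the 17 tricarboxylic acid cycle genes was called in either tissue, and 13 of the 17 values in intestine were negative. In fatty acid synthesis and storage 3 of 15 genes fell in skin, *Elovl6* (-2.20 ± 0.30, adjusted p = 0.0107), *Gpam* (-0.81 ± 0.17, adjusted p = 0.0402) and *Acacb* (-1.13 ± 0.25, adjusted p = 0.0460), and none was called in intestine. Without skin control 2 *Elovl6* and *Gpam* stayed called, while *Acacb* (adjusted p = 0.0672) and *Acox3* (adjusted p = 0.0543) did not. In intestine *Plin2* and *Pex11a* stayed called only without control 7, and *Acox2* was lost without IMQ 10 or IMQ 11.

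**Figure D5:**
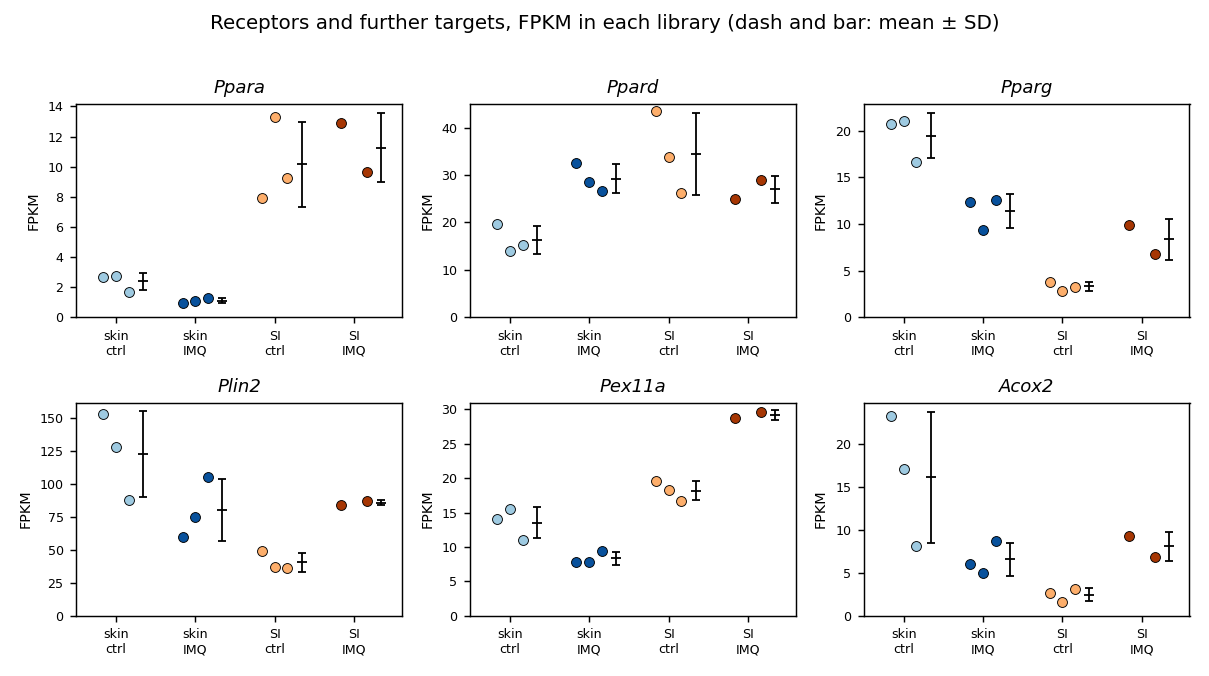
FPKM of the receptors *Ppara*, *Ppard* and *Pparg* and of *Plin2*, *Pex11a* and *Acox2* in every library of the 4 groups, with mean ± SD beside the points. *Ppara* is lower and *Ppard* higher in IMQ skin than in control skin, and the 4 other genes are higher in IMQ than in control intestine.

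Cell type markers moved with treatment in both tissues. With all libraries kept, the shares of all genes called are those given for the neighbouring pathways. In skin all 8 sebaceous gland markers had negative values and 3 fell (2 without control 2), their summed level being 294 to 595 FPKM in controls and 153 to 283 under IMQ. Adipocyte markers (9 of 10 negative, 0 called) summed to 1653 to 2496 and 1356 to 1580 FPKM, and skeletal muscle markers (10 of 11 negative, 0 called) to 4866 to 7192 and 3471 to 6902 FPKM. Neutrophil markers, of which all 4 tested rose, summed to 12.9 to 14.1 FPKM in control and 7032 to 8584 in IMQ skin. Macrophage markers, of which 4 of 7 rose, summed to 233 to 371 FPKM in control and 633 to 859 in IMQ skin. Of the 5 keratinocyte markers *Krt14* rose and 4 values were positive, with sums of 4664 to 9347 and 7813 to 13044 FPKM. Of 5 smooth muscle markers 1 fell and 4 values were negative, with sums of 235 to 279 and 156 to 359 FPKM. All 5 hair follicle markers tested had negative values, none called with all libraries and all 5 called without control 2, and the 8 summed to 602 and 994 FPKM in controls 1 and 3, 2.68 in control 2 and 2.47 to 3.31 under IMQ. No marker of these lists was at 0 in all libraries of a skin group. In intestine macrophage markers (5 of 7 rose) summed to 134 to 202 FPKM in controls and 726 to 810 under IMQ, and the enterocyte markers, with 0 of 8 called and 6 of 8 negative, to 8804 to 13443 and 15149 to 16531 FPKM. Without *Apoa4*, an apolipoprotein of fat absorption that alone gave 1078 to 3654 and 6630 to 10231 FPKM, the other 7 summed to 6851 to 10869 and 6301 to 8520 FPKM, ranges that overlapped. Adipocyte markers in intestine summed to 70.2 to 88.0 FPKM in controls, where *Adipoq*, *Plin1*, *Lep* and *Retn* were at 0, and to 111 to 125 under IMQ. Smooth muscle markers in intestine (4 of 5 negative, 0 called) summed to 173, 287 and 263 FPKM in control libraries 7, 8 and 9. Under IMQ they summed to 335 FPKM in library 10 and 92.4 in library 11. Of the 3 neutrophil markers tested in intestine 1 rose, with sums of 1.01 to 1.89 FPKM in controls and 9.18 to 9.45 under IMQ. Position along the gut is not named in the sample titles. The 4 distal small intestine markers (4 negative, 0 called) summed to 185 to 266 FPKM in control and 143 to 171 in IMQ intestine, without overlap. The 4 proximal markers (3 negative, 0 called) summed to 225 to 346 and 250 to 300 FPKM. The part of these cell types and of intestinal position in the members' values was not tested.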

How the data were processed

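RNA libraries from skin and small intestine of BALB/c mice were sequenced, and the authors deposited 1 table of gene counts, FPKM and TPM for the 11 libraries. Per the labels, the authors processed the reads with bcl2fastq 2.20.0, Trimmomatic, HISAT2 2.1.0 and StringTie 2.1.3b on mm10. The libraries came from a stranded mRNA kit, and StringTie estimated abundance. How the count column was derived, and whether counting used strand or reads with several matches, is not given in the sources used here. Counts as deposited were tested with the quasi-likelihood test of edgeR 4.0.16 (R 4.3.3) with RLE size factors, on genes that no library of the fit held below 1 count, and Benjamini-Hochberg adjusted p under 0.05 was called. Skin and intestine were fitted apart, and the tissue difference and the difference of IMQ effects in one model of all 11 libraries. The deposited FPKM were used for levels and in limma 3.58.1, and the deposited TPM were not used. Standard errors are the log2 fold change divided by the root of F. The procedure was tested on simulated data first. Members and gene lists were chosen with earlier results of these data known. By rule, values in every library are given for called members, the highest and lowest member of each tissue and 8 set genes. Alternatives were TMM, DESeq2 1.42.0, other filters, FPKM with pseudocounts of 1 and 0.01, and leaving out each library. Shared sequence was counted in 100-base windows of the annotated transcripts. Some results on genes outside the member set are not reported here.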

Additional observations from a re-analysis of the deposited data

Results flagged for a closer look

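The IMQ effect differed between small intestine and skin, by a test of the difference itself in one fit of the 11 libraries with edgeR, for 4 of the 40 members tested. The same test called 1.70% of all genes higher in intestine and 0.856% lower. The effect in intestine minus that in skin was 3.26 on the log2 scale for *Acot1* (adjusted p = 0.00349), with a fall in 3 of 3 IMQ skin libraries below all controls and a rise in 2 of 2 IMQ intestine libraries above all controls. It was 3.23 for *Acot3* (adjusted p = 0.0208), which rests on 6 to 59 counts a library, 1.51 for *Acaa1b* (adjusted p = 0.0386) and 1.01 for *Aldh3a2* (adjusted p = 0.0357). In each of these 4 genes the control and IMQ libraries were separate in both tissues, lower under IMQ in skin and higher in intestine. Of all genes tested, 13.3% lay below in skin and 15.1% above in intestine. The 4 were picked by a test of the same values, so their separation is no further support. Only *Acot1* stayed called with filterByExpr, with no filter, and without skin IMQ 5 or any of intestinal libraries 8, 9, 10 and 11. The cause was not tested.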

How the results depend on the processing

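The number of members called rested on few libraries, and with 2 IMQ libraries in intestine each weighs heavily. In skin, where 1 was called (*Acot1*), DESeq2 called 7 (6 lower) with 14.8% of all genes in place of 6.74%. One fit of all 11 libraries called 3, all lower, with 10.2% of all genes, and *Acot1* was not among them. A threshold of an absolute log2 fold change of 1 called 0 (4.98%), and with 1 library left out the count ran from 0 to 4. In intestine, where 6 were called, DESeq2 called 10 with 6.04% of all genes in place of 2.95%, limma on FPKM called 1 with a pseudocount of 1 (2.02%) and 3 with 0.01 (2.2%), and leaving out a library gave 0 to 10, all higher. For the difference of effects, where 4 were called, DESeq2 called 11 with 7.07% of all genes in place of 2.55%, the FPKM fits 8 (2.35%) and 7 (2.1%), filterByExpr 1 (1.61%) and no filter 1 (0.968%), and leaving out a library gave 1 to 8, all higher. The tissue count of 34 kept within 32 to 35. Signs turned for *Angptl4* in skin (-0.064 and -0.070 on FPKM with pseudocounts 1 and 0.01, -0.016 in one fit of all libraries), *Acadl* between tissues (0.18 and 0.19 on FPKM) and *Vnn1* in the difference of effects (-0.074 on FPKM + 1), none of them called. With 1 library left out, log2 values that crossed 0 ran from -0.31 to 0.066 for *Cpt1b*, -0.0083 to 0.32 for *Acot4* and -0.36 to 0.26 for *Angptl4* in skin, from -1.41 to 0.33 for *Cpt1b*, -0.052 to 0.041 for *Decr1*, -0.014 to 0.25 for *Ehhadh* and -1.03 to 0.30 for *Vnn1* in intestine, from -0.39 to 0.60 for *Pdk4* and -0.23 to 0.63 for *Angptl4* between tissues, and from -1.32 to 0.39 for *Cpt1b* and -0.23 to 1.12 for *Vnn1* in the difference of effects. Leaving out libraries for genes that are no members was chosen after seeing the data. The cause was not tested. No paired analysis was possible because the libraries are numbered 1 to 11 with no number shared between groups.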
